A study of Homo sapiens with 6 samples.

Results

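AC003092.1 is a long intergenic noncoding RNA gene on the long arm of human chromosome 7, in band 7q21. It was studied with the 5 protein-coding genes named beside it on that stretch, which are TFPI2, GNGT1, GNG11, BET1 and CALCR. These 6 genes are a small share of the 58735 genes in the table. AC003092.1 was chosen from the measured values themselves, because it was near 0 in control cells and at about 11 FPKM (fragments normalised to gene length and library size) in treated cells. Its own levels are therefore given as a description, with no test. The 5 neighbours are protein-coding genes of that stretch, and they were named with earlier results of these data known. Noncoding genes that lie nearer to AC003092.1 are not among them.

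The cells were AZ-521, a human line labelled as gastric cancer with a wild-type genotype. PD cells had been kept for 48 h with 10 µM platycodon D (PD), a plant saponin, and DMSO cells for 48 h with its solvent. Each group had 3 samples, numbered 1 to 3, and all came from this single line. Whether the samples of a group were separate cultures is not in the labels, and the spread behind the p-values may be technical. Poly(A)-selected RNA was read in 150-base pairs, and between 14915538 and 16341687 reads per sample fell on genes. Because the RNA is bulk RNA, more RNA per cell and a larger share of cells with that RNA cannot be told apart.

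The label was set against marker genes. Of 5 epithelial markers, 0 reached 1 FPKM in any sample, with a summed level of 0.345 to 0.471 FPKM in PD cells and 0.425 to 0.630 FPKM in DMSO cells, and KRT18 and KRT19 were listed at 0 throughout. Of 7 gastric markers, 0 reached 1 FPKM, and 4 of them (GKN1, GKN2, TFF1 and TFF2) were at 0. Of 5 intestinal markers, 1 reached 1 FPKM and the others were at or near 0. That one, the transcription factor CDX2, was at 1.18 FPKM in PD cells and 1.27 FPKM in DMSO cells. Of 5 fibroblast markers, 2 reached 1 FPKM (COL3A1 and LUM), while COL1A1, COL1A2 and DCN did not. The fibroblast list summed to 50.4 to 51.8 FPKM in PD cells and 54.0 to 64.8 FPKM in DMSO cells, mostly from the collagen gene COL3A1. The labelled gastric epithelial type was thus not borne out by its markers, and the fibroblast list was not borne out as a whole either. AZ-521 stocks have been reported elsewhere to match a duodenal line.

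Long intergenic noncoding RNAs are transcribed by RNA polymerase II and are usually spliced and given a poly(A) tail, but hold no long reading frame. They are on the whole less abundant and more cell-type-restricted than mRNAs, and many have no assigned function. No role is assigned to AC003092.1 here. Among its neighbours, BET1 and VPS50 serve membrane traffic, GNGT1 and GNG11 encode gamma subunits of heterotrimeric G proteins, TFPI2 encodes a secreted protease inhibitor and CALCR the calcitonin receptor. Farther along lies an imprinted cluster, in which PEG10 and SGCE are expressed mainly from the paternal copy.

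AC003092.1 (ENSG00000236453) spans chromosome 7, 94022833 to 94066661, on the plus strand of GRCh38, and its exons cover 1064 bases. GENCODE 29 gives it 2 transcripts of 4 and 5 exons, 639 and 743 bases long, whose longest open reading frames hold 26 and 27 codons. The long-span transcript has a first intron of 38.5 kb. The short-span transcript starts near the end of that intron, and 2 exons are the same in both. Gene-level values do not say which of the transcripts was present. The first exon of the short-span transcript and both shared exons are shown, since the shared ones belong to the measured RNA whichever transcript it came from. In the first exon of the short-span transcript, the capitals mark a 16-base run that occurs in 2 copies.
AC003092.1 short-span first exon, chr7:94061141-94061270, plus strand: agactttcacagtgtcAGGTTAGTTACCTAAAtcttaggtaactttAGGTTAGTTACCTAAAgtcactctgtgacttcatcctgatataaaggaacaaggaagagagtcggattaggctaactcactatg
AC003092.1 exon shared by both transcripts, chr7:94061456-94061625, plus strand: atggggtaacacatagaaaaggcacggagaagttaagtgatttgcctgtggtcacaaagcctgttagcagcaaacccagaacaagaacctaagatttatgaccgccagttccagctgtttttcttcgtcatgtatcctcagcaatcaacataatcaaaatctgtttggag
AC003092.1 second shared exon, chr7:94061769-94061864, plus strand: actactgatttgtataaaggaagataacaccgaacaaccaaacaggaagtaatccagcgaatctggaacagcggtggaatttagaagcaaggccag
Of the annotated exons of other genes, 0 overlap an exon of AC003092.1 on either strand, so its reads are not shared with an annotated neighbour. The poly(A) signals AATAAA and ATTAAA, searched on the transcript strand in the last 40 bases, were in neither AC003092.1 transcript, while 41.2% of 14379 annotated lincRNA transcripts held one there. The model of the long-span transcript ends in 18 A bases.

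**Figure D1:**
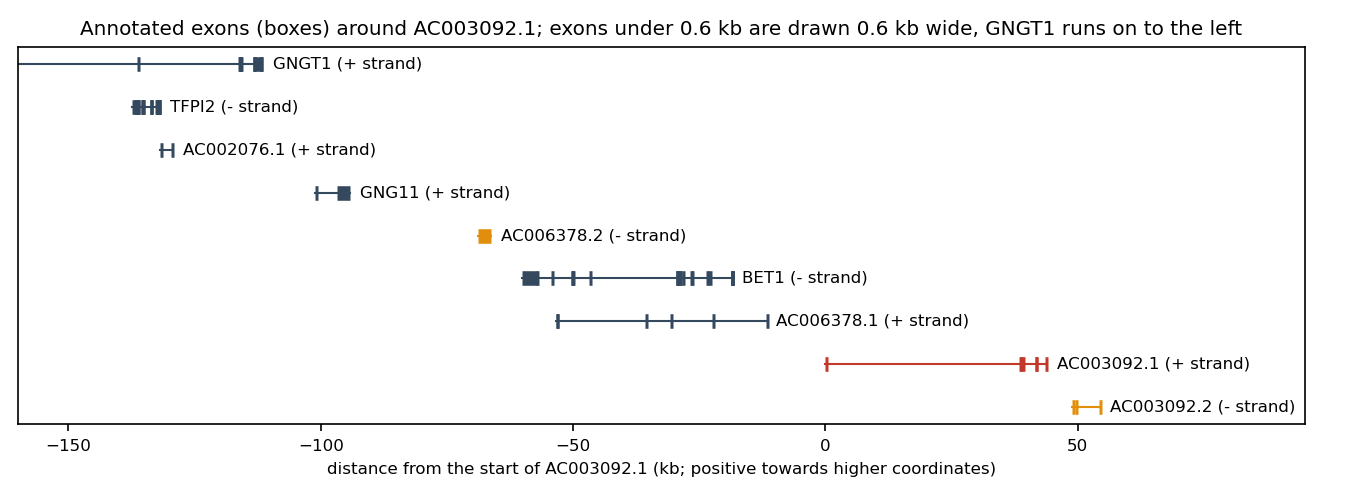
Exon maps of the genes between TFPI2 and AC003092.2, with distance from the start of AC003092.1 in kb on the x axis and one gene per row. Red marks AC003092.1, orange marks 2 further noncoding genes with higher values in PD cells, and BET1 ends 18.5 kb before the start of AC003092.1.

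In PD cells AC003092.1 was at 9.18, 11.6 and 12.7 FPKM in replicates 1 to 3. In DMSO cells it was at 0, 0.110 and 0.160 FPKM. The groups were far apart, and all 3 PD samples lay at similar levels. These levels rested on 150, 189 and 202 reads in PD cells and on 0, 2 and 3 reads in DMSO cells. A level of 3 reads, which a count of 0 still allows, stood for 0.160 to 0.188 FPKM, so the level in DMSO cells lay at the edge of detection.

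The means were 11.1 ± 1.78 FPKM in PD cells and 0.0900 ± 0.0818 FPKM in DMSO cells (SD, n = 3 each). On the log2(FPKM + 1) scale, where the added 1 understates changes of low genes, the difference was 3.47. With summed reads scaled by the library sizes behind the FPKM values, the ratio was 119, from 541 reads in PD cells and 5 in DMSO cells. Its exact 95% interval of 50.5 to 366 covers counting error only. It does not allow for the choice of the gene by this same contrast, so it is no test of the rise. All read ratios given here were scaled in this way. AC003092.1 reached the filter (at least 1 FPKM in at least 3 samples) through PD cells only. Of the 13579 genes that passed it, 213 did so, and in all 213 the groups had to be apart.

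AC003092.1 ranked 2 of 13579 tested genes by upward log2(FPKM + 1) difference. The gene ahead of it on that scale, at 3.68, was AC016876.1, and the order turned with a pseudocount of 0.1, where AC003092.1 was at 5.98 and AC016876.1 at 4.19. AC016876.1, an antisense gene on chromosome 17, was at 35.8 ± 5.19 FPKM in PD cells and already at 1.86 ± 0.217 FPKM in DMSO cells (SD, n = 3 each). Among the 7629 lincRNA genes in the table, AC003092.1 held rank 28 by mean level in PD cells and rank 1734 in DMSO cells. The 532 tested lincRNA genes had a median of 2.03 FPKM in PD cells and 1.86 FPKM in DMSO cells. In PD cells AC003092.1 thus stood well above a typical detected lincRNA.

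**Figure D2:**
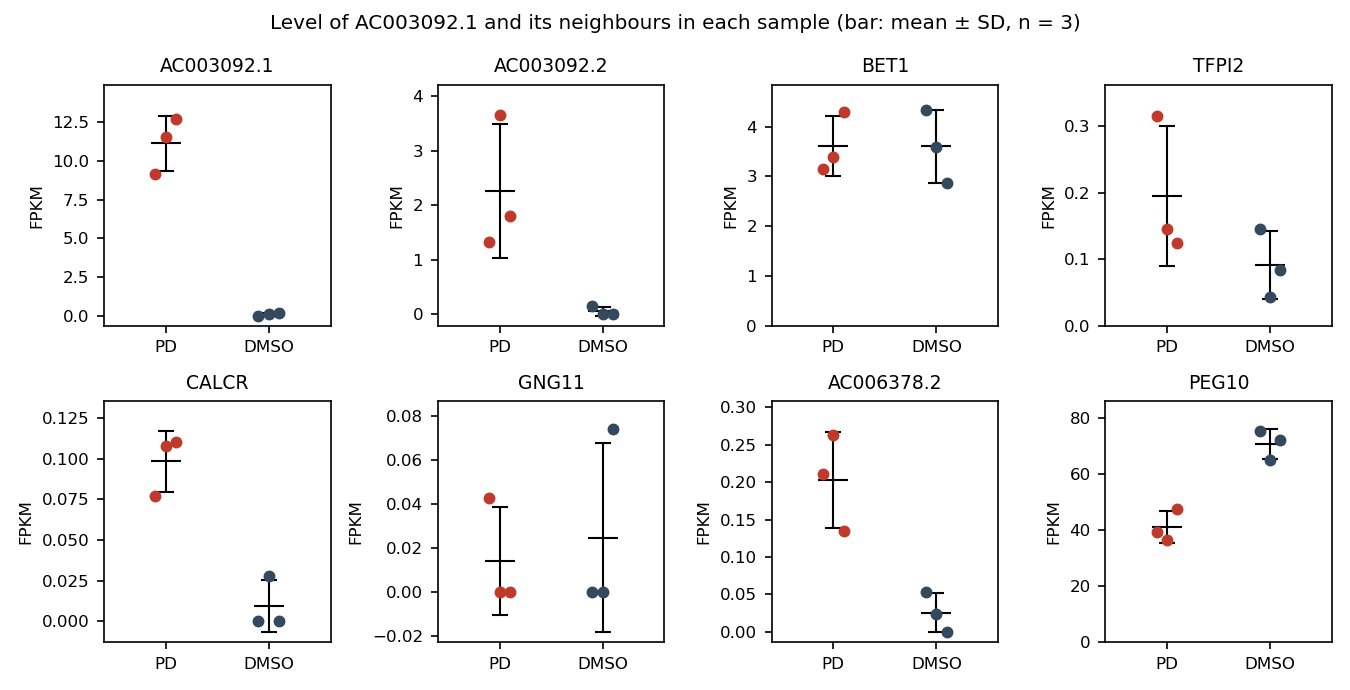
FPKM by sample for AC003092.1, 4 of its chosen neighbours, AC003092.2, AC006378.2 and PEG10, with PD at the left and DMSO at the right of each panel; points are samples, and bars show the mean ± SD (n = 3). Each y axis starts at 0 or below and has its own scale, and AC003092.1 is at 9.18 to 12.7 FPKM in PD cells against 0.160 FPKM or less in DMSO cells.

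BET1 (ENSG00000105829), a SNARE protein of vesicles that move between the endoplasmic reticulum and the Golgi, is the nearest protein-coding neighbour. It lies at 93962762 to 94004382 on the minus strand, so that it and AC003092.1 point away from each other across 18.5 kb. BET1 was at 3.15, 3.39 and 4.30 FPKM in PD cells and at 4.33, 3.60 and 2.87 FPKM in DMSO cells. The groups overlapped almost completely. Its means were 3.61 ± 0.605 FPKM in PD cells and 3.60 ± 0.729 FPKM in DMSO cells (SD, n = 3 each).

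The log2 difference of BET1 was 0.01 ± 0.15 (SE; limma, adjusted p = 0.975), and its sign turned to -0.12 when all samples were scaled to the same total, which moved the median of all genes to -0.13. With 865 reads in PD cells and 937 in DMSO cells, the read ratio after scaling was 1.01, with a 95% counting interval of 0.921 to 1.11. Per base of exon, AC003092.1 was at 2.91, 3.41 and 2.95 times the level of BET1 in PD cells, and at 0, 0.0306 and 0.0556 times in DMSO cells. AC003092.1 was thus above BET1 per base in all 3 PD samples and far below it in all 3 DMSO samples. The span of AC006378.1, an antisense gene, overlaps that of BET1 and runs past the BET1 start towards AC003092.1. AC006378.1 held 4, 3 and 4 reads in PD cells and 5, 1 and 0 in DMSO cells. The kit marks strand, but no source says that counting used it, so reads of overlapping opposite genes cannot be told apart.

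TFPI2 (ENSG00000105825; 93885396 to 93890991, minus strand) encodes a Kunitz-type inhibitor of plasmin and other serine proteases that is bound to the extracellular matrix. It is known as a gene whose CpG-rich promoter is methylated in many tumours. TFPI2 held 13, 6 and 5 reads in PD cells and 6, 2 and 4 reads in DMSO cells, which is 0.316, 0.146 and 0.124 FPKM in PD cells and 0.146, 0.0437 and 0.0845 FPKM in DMSO cells. The groups overlapped, and the highest PD sample made most of the difference. The scaled read ratio was 2.19, with a 95% counting interval of 1.05 to 4.81 that does not cover the choice of scaling. TFPI2 was too low to be tested with the other genes, and with no filter its adjusted p was 0.388 (limma).

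The promoters of TFPI2 and BET1 are set side by side because both hold many CG dinucleotides, shown in capitals, while their levels differed widely. The sequences are from RefSeq, build GRCh38.p14, and run from 250 bases before the gene start to 50 bases from it on.
TFPI2 promoter, chr7:93890704-93891003, minus strand: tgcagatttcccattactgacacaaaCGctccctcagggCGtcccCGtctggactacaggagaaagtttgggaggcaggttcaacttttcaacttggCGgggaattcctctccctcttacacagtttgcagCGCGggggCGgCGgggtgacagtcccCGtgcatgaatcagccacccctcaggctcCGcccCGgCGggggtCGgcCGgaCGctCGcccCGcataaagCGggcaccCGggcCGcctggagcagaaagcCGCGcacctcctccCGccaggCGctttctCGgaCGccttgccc
BET1 promoter, chr7:94004306-94004605, minus strand: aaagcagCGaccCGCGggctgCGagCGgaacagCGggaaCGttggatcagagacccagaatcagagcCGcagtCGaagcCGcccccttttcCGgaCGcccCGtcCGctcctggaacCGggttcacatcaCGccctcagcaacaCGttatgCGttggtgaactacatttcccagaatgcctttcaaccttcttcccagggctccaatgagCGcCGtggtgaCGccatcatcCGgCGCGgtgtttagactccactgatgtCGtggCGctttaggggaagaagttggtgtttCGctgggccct
The TFPI2 promoter holds 26 CG dinucleotides and the BET1 promoter 27, against a median of 14 over 35116 promoters of this length. Of those promoters, 30.1% hold at least as many as TFPI2 and 28.2% as many as BET1. The GNG11 promoter holds 9 and that of GNGT1 holds 2. Methylation was not measured, so these counts describe the sequence only. TGANTCA, searched on both strands, lies 87 bases before the TFPI2 start, and 7.71% of promoters hold it. AC003092.1 has no entry in the promoter table.

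CALCR (ENSG00000004948; 93424487 to 93574730, minus strand) encodes the calcitonin receptor, a G protein-coupled receptor of bone and kidney. It held 5, 7 and 7 reads in PD cells and 0, 2 and 0 reads in DMSO cells. Its level was 0.0984 ± 0.0186 FPKM in PD cells and 0.00925 ± 0.0160 FPKM in DMSO cells (SD, n = 3 each). Every PD sample was above every DMSO sample, but the highest stood at only 0.110 FPKM. Of 5028 genes with 10 to 40 reads in all, 10.1% had groups that did not overlap in this direction. The read ratio was 10.4, with a 95% counting interval of 2.51 to 92.1. The adjusted p of CALCR was 0.0613 on log2(FPKM + 1) with no filter and 0.0239 with voom on whole reads recovered from FPKM, a fit chosen after the data were seen, in which 12.0% of 22253 genes passed upwards.

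The G protein gamma genes were silent or nearly so. GNG11 (ENSG00000127920; 93921699 to 93928610, plus strand), a gamma subunit of many non-neural tissues, held 2, 0 and 0 reads in PD cells and 0, 0 and 4 reads in DMSO cells. GNGT1 (ENSG00000127928; 93591573 to 93911265, plus strand), the gamma subunit of rod transducin, was at 0 in all 6 samples, and the limit that a count of 0 allows was 0.0720 to 0.0848 FPKM per sample. Neither gives a fold, and no difference was detectable at this depth. Of the 5 neighbours, then, 1 (BET1) had a level that could be tested and it did not pass, TFPI2 and CALCR were under 0.4 FPKM in every sample, and GNG11 and GNGT1 were at or near 0.

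The search was widened to every gene whose body reaches within 1 Mb of AC003092.1 on either side. Of these 37 genes, 16 had no read in any sample and 7 passed the filter and were tested. Among the 7 tested, 1 rose (AC003092.2, which reached the filter through PD cells only) and 1 fell (PEG10). Over all tested genes, 14.3% rose and 12.7% fell. The 7 genes had a median log2 difference of 0.01, beside 0.00 over all tested genes. With 7 genes, these shares do not set the region apart from the rest of the genome. Of the 14 protein-coding genes among the 37, 6 were tested, 0 rose and 1 fell.

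AC003092.2 (ENSG00000236938) is the lincRNA gene directly beyond AC003092.1. It lies at 94071759 to 94077157 on the minus strand, so the genes converge, with 5.10 kb between their ends. Its last exon is shown because, unlike the AC003092.1 models, it carries a poly(A) signal, ATTAAA, in capitals.
AC003092.2 exon 3, chr7:94071759-94071958, minus strand: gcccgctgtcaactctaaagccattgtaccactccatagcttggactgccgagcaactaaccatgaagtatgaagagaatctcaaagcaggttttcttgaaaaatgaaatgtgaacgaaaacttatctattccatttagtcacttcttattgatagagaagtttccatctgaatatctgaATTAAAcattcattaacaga
AC003092.2 held 9, 25 and 12 reads in PD cells and 1, 0 and 0 reads in DMSO cells. In FPKM this was 1.31, 3.65 and 1.79 in PD cells and 0.146, 0 and 0 in DMSO cells. The sample with the most AC003092.2 was PD replicate 2, while AC003092.1 was most abundant in PD replicate 3. The log2 difference of AC003092.2 was 1.57 ± 0.27 (SE, limma with no filter, adjusted p = 0.0263). Its means were 2.25 ± 1.23 FPKM in PD cells and 0.0487 ± 0.0843 FPKM in DMSO cells (SD, n = 3 each). It too reached the filter through PD cells only, as all 213 genes of that kind did with groups that had to be apart, so its pass adds nothing to the count for the region. Its read ratio was 50.4, with a wide 95% counting interval of 8.60 to 2033. Its exons overlap 0 exons of other genes, so its reads were not those of AC003092.1 exons as annotated.

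AC006378.2, a single-exon gene still awaiting experimental support in the annotation, lies between GNG11 and BET1 (93954044 to 93956519, minus strand). It held 8, 10 and 5 reads in PD cells and 2, 1 and 0 reads in DMSO cells. Every PD sample was above every DMSO sample, as for 10.1% of genes with 10 to 40 reads. The read ratio was 8.40, with a 95% counting interval of 2.54 to 43.7, and the adjusted p was 0.0530 with no filter and 0.0292 with voom, where 4.48% and 12.0% of genes passed upwards. Like CALCR it passed in one fit and not in the other, at levels of 0.263 FPKM and below.

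Endothelial, leukocyte and placental trophoblast markers were low, unlike the fibroblast list. Of 3 endothelial markers, 0 reached 1 FPKM. Their sum was 0 to 0.0686 FPKM in PD cells and 0 to 0.00730 FPKM in DMSO cells, so the groups overlapped. Of 4 leukocyte markers, 0 reached 1 FPKM, and their sum was 0.0600 to 0.397 FPKM in PD cells and 0 to 0.0345 FPKM in DMSO cells, mostly from CD14, with CD3E at 0. Of 4 placental trophoblast markers, a cell type rich in TFPI2, 0 reached 1 FPKM, and their sum was 0.0602 to 0.285 FPKM in PD cells and 0 to 0.0212 FPKM in DMSO cells, mostly from GCM1. The leukocyte and trophoblast sums were higher in every PD sample than in any DMSO sample, but the share of such sums over other gene sets was not worked out. Among single genes with 10 to 40 reads, 10.1% had groups apart in this direction. In the trophoblast list, GCM1, PSG1 and CGA had higher means in PD cells. KRT7 went the other way, at 0 in PD cells and 0.00461 FPKM in DMSO cells. The part of such cell types in the values of TFPI2, CALCR and AC006378.2 was not tested.

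**Figure D3:**
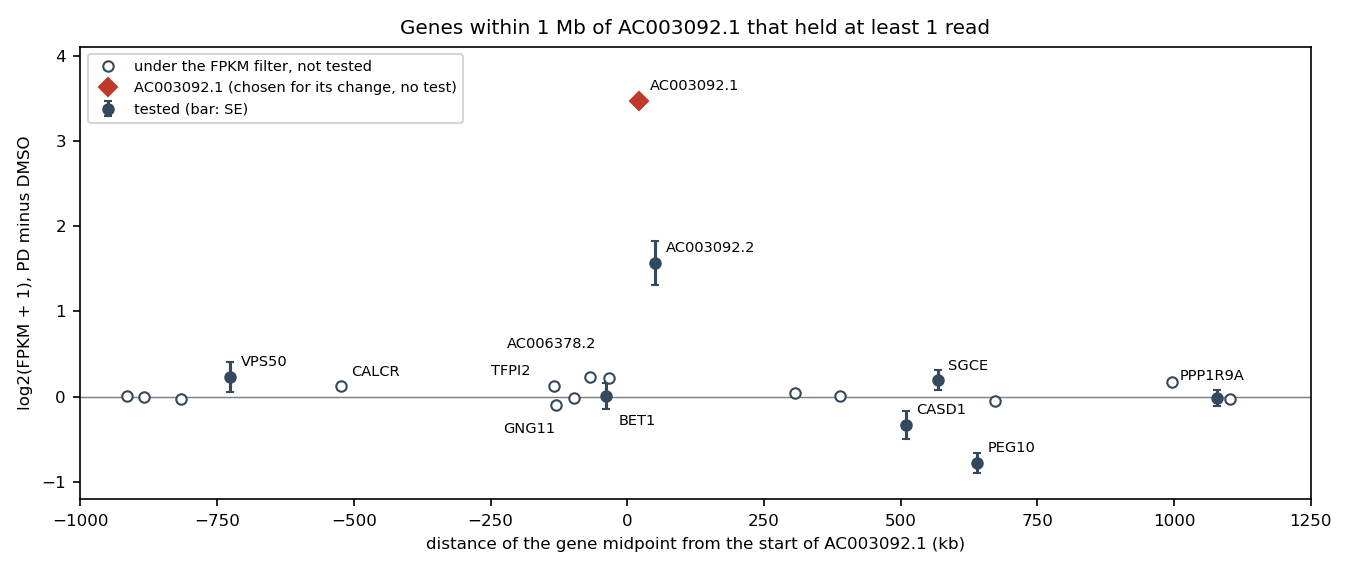
Differences in log2(FPKM + 1), PD minus DMSO, of the genes within 1 Mb that held a read, by the distance of the gene midpoint from the start of AC003092.1 in kb; filled points were tested and carry SE bars, open points were under the filter, and the diamond is AC003092.1, which has no test. AC003092.1 at 3.47 and AC003092.2 at 1.57 stand side by side, BET1 is at 0.01, and PEG10 at -0.77 is the lowest.

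PEG10, an imprinted gene derived from a retrotransposon, lies at 94656325 to 94669695 on the plus strand. It was at 39.3, 36.6 and 47.7 FPKM in PD cells and at 75.5, 64.9 and 72.1 FPKM in DMSO cells. The groups did not overlap, as was so in this direction for 21.9% of tested genes. PEG10 fell by 0.77 on the log2 scale (SE 0.12; limma, adjusted p = 0.00434), with means of 41.2 ± 5.81 FPKM in PD cells and 70.9 ± 5.41 FPKM in DMSO cells (SD, n = 3 each). SGCE, the epsilon-sarcoglycan gene that starts beside PEG10 on the other strand, was at 1.45, 1.43 and 1.78 FPKM in PD cells and at 1.35, 1.23 and 1.12 FPKM in DMSO cells. Its groups did not overlap, as for 22.5% of tested genes with PD higher, and its difference of 0.19 did not pass (adjusted p = 0.269).

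The other tested genes near AC003092.1 did not pass. CASD1, an enzyme that acetylates sialic acids, was at 4.37, 4.87 and 6.49 FPKM in PD cells and at 8.34, 6.06 and 6.06 FPKM in DMSO cells (log2 difference -0.33, limma, adjusted p = 0.180). With all samples scaled to the same total, it passed at an adjusted p of 0.0455, and without DMSO replicate 1 and PD replicate 3 at 0.0378. VPS50, a subunit of an endosomal recycling complex, was at 3.43, 4.80 and 5.44 FPKM in PD cells and at 4.64, 3.21 and 3.27 FPKM in DMSO cells (log2 difference 0.24, adjusted p = 0.358). It passed at 0.0401 when samples were weighted by their quality. PPP1R9A, which encodes the actin-binding protein neurabin, was at 5.85 to 6.75 FPKM in PD cells and 5.97 to 6.96 FPKM in DMSO cells, a difference of -0.02 (adjusted p = 0.910) that turned to 0.08 with those weights. COL1A2, the nearest collagen gene, held 9 reads in PD cells and 8 in DMSO cells.

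Genes that went from near absence to a clear mean level were rare. With a mean under 0.5 FPKM in DMSO cells and of at least 5 FPKM in PD cells, there were 4 genes in the whole table, and all 4 are of noncoding biotypes. In the opposite direction there were 0. The 4 were AC003092.1, the pseudogene MICE, HLA-F-AS1 and the microRNA gene MIR33A. MICE and HLA-F-AS1 overlap on the same strand of chromosome 6, so their reads cannot be told apart. All 4 reached the filter through PD cells only, and so had to differ between the groups.

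HLA-F-AS1, an antisense gene in the major histocompatibility complex, was at 5.91, 7.62 and 6.02 FPKM in PD cells and at 0.312, 0.337 and 0.420 FPKM in DMSO cells. Its log2 difference was 2.46. MICE was at 7.82, 10.2 and 4.67 FPKM in PD cells and at 0.225, 0.355 and 0.588 FPKM in DMSO cells, a difference of 2.58. No test is given for genes chosen by this contrast.

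MIR33A, which lies in an intron of the sterol regulator gene SREBF2, held 9, 8 and 2 reads in PD cells and 1, 0 and 0 reads in DMSO cells. Its gene is 69 bases long, so a few reads gave a high FPKM, and PD replicate 3 was at only 1.93 FPKM. Whether these reads came from unspliced SREBF2 RNA was not tested. Its log2 difference was 2.31. The fifth noncoding gene by rise from under 1 FPKM, the U6 small nuclear RNA pseudogene RNU6-97P, held 4, 5 and 8 reads in PD cells and 0 in every DMSO sample. Reads of such a repeat-like copy may come from other U6 copies. AC003092.1 had the most reads per base of the 5 in PD cells and stood on 541 of them.

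**Figure D4:**
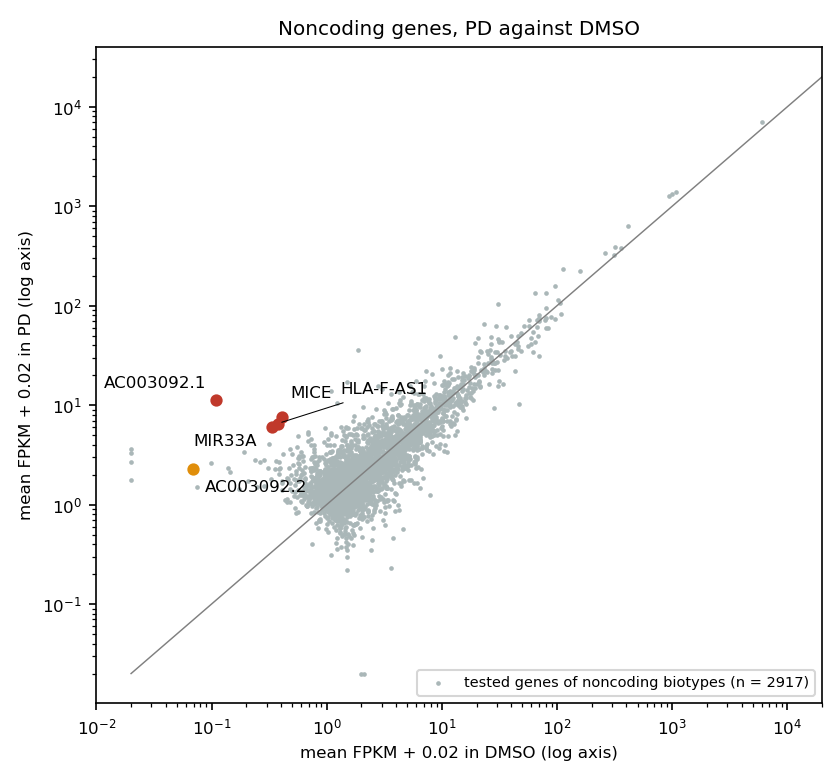
Mean FPKM of 2917 tested noncoding genes in PD (y) and DMSO (x) cells on log axes, after adding 0.02 so that 0 can be shown; the line marks equal levels. Red points are the 4 genes under 0.5 FPKM in DMSO cells and at 5 FPKM or more in PD cells, with AC003092.1 farthest from the line among them, and the orange point is AC003092.2.

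The genes whose pattern over the 6 samples was most like that of AC003092.1 were sought by Pearson's r of log2(FPKM + 1). The 5 with the highest r, from 0.9997 down to 0.9990, were PIM1, NOCT, CHMP1B, MIR22HG and ETS1. PIM1 is a serine/threonine kinase, NOCT a rhythmically expressed phosphatase, CHMP1B a subunit of the ESCRT-III membrane-cutting complex, MIR22HG the host gene of a microRNA and ETS1 a transcription factor. CHMP1B averaged 76.7 FPKM in PD cells and 13.6 FPKM in DMSO cells, and NOCT 57.6 FPKM in PD cells and 17.2 FPKM in DMSO cells. PIM1 averaged 55.5 and MIR22HG 62.6 FPKM in PD cells, against 25.9 and 29.4 FPKM in DMSO cells.

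ETS1 was the lowest of the 5, with 6.62 FPKM in PD cells and 1.13 FPKM in DMSO cells. All 5 were expressed in DMSO cells, so they share the pattern but not the near absence in control cells. The r is set mostly by the distance between the groups, and 144 tested genes had an r over 0.99, so the list describes likeness over these 6 samples and no more.

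The families of the neighbours were read as lists, by counts beside all tested genes. Of 9 tested G protein beta and gamma subunit genes, 1 rose and 1 fell, with a median log2 difference of 0.10, close to the shares over all tested genes (14.3% rose, 12.7% fell). GNG3, a neural gamma subunit, rose by 1.26 (limma, adjusted p = 0.0134), with 5.93 ± 2.42 FPKM in PD cells and 1.77 ± 0.330 FPKM in DMSO cells (SD, n = 3 each), but did not pass with no filter (0.0551). GNB1, the most common beta subunit, fell by 0.35 (adjusted p = 0.0337), with 70.9 ± 6.03 FPKM in PD cells and 90.5 ± 4.38 FPKM in DMSO cells (SD, n = 3 each). It did not pass with no filter (0.0699), with upper-quartile scaling (0.0586) or without any one sample other than PD replicate 3 (0.0541 to 0.124). The gamma subunits of 7q21 thus had expressed relatives while being at or near 0 themselves.

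The list of Kunitz inhibitors and the plasminogen system, to which TFPI2 belongs, held changes both ways. Of its 7 tested genes, 5 rose and 0 fell, with a median of 0.54, where 14.3% of all tested genes rose and 12.7% fell. With no filter, 4 of the 15 genes with a read were higher in PD cells and 1 was lower, with a median of 0.14, where 4.48% of 32355 genes were higher and 3.32% lower. The lower one, named after its values were seen, was PLG, which encodes plasminogen itself and held 37, 27 and 28 reads in PD cells and 102, 101 and 107 reads in DMSO cells. PLG was at 0.315 ± 0.0547 FPKM in PD cells and 0.973 ± 0.0597 FPKM in DMSO cells (SD, n = 3 each; log2 difference -0.59, limma with no filter, adjusted p = 0.0248), and the groups did not overlap. F2RL1, a receptor cleaved by trypsin-like proteases, was at 3.87 ± 0.520 FPKM in PD cells and 1.21 ± 0.265 FPKM in DMSO cells (SD, n = 3 each; log2 difference 1.14, limma, adjusted p = 0.00153). The clotting initiator F3, at 1.61 ± 0.136 FPKM in PD cells and 0.723 ± 0.0526 FPKM in DMSO cells, reached the filter through PD cells only; with no filter its log2 difference of 0.60 had an adjusted p of 0.0357 (limma).

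APP, the amyloid precursor with a Kunitz domain in some isoforms, rose by 0.54 (limma, adjusted p = 0.00354), with 150 ± 2.94 FPKM in PD cells and 103 ± 2.80 FPKM in DMSO cells (SD, n = 3 each). The thrombin receptor gene F2R, named after its values were seen, rose by 0.53 (adjusted p = 0.0195) and did not pass with no filter (0.0628) or without PD replicate 1 or 2 or DMSO replicate 2 or 3 (0.0501 to 0.0709). The named members include receptors as well as a clotting factor, so the count does not describe 1 direction of protease activity. TFPI2 itself, at 0.316 FPKM or less, added no test to it.

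Matrix metalloproteinases (MMPs) and their inhibitors, which act in the matrix where TFPI2 is deposited, had 8 tested genes, of which 5 rose and 1 fell, with a median of 0.78, where 14.3% of all tested genes rose and 12.7% fell. With no filter, 5 of the 16 genes with a read were higher in PD cells and 0 lower, and the median was 0.09. Of all 32355 genes in that fit, 4.48% were higher and 3.32% lower. MMP14, a membrane-bound collagenase, was at 8.32 ± 2.44 FPKM in PD cells and 3.40 ± 0.459 FPKM in DMSO cells (SD, n = 3 each; log2 difference 1.05, limma, adjusted p = 0.00996). MMP1, the interstitial collagenase, was at 1.62 ± 0.206 FPKM in PD cells and 0.322 ± 0.0721 FPKM in DMSO cells and reached the filter through PD cells only; with no filter its difference of 0.99 had an adjusted p of 0.0105. MMP24 rose by 0.94 (adjusted p = 0.00122), at 3.19 ± 0.104 FPKM in PD cells and 1.18 ± 0.145 FPKM in DMSO cells. The inhibitor TIMP1 rose with the proteases, by 0.98 (adjusted p = 0.00176), at 12.7 ± 1.85 FPKM in PD cells and 5.92 ± 0.398 FPKM in DMSO cells. The other genes past the test, named after their values were seen, were MMP10, which rose by 0.62 (adjusted p = 0.00403), and MMP17, which fell by 0.58 (adjusted p = 0.0476). MMP17 did not pass with no filter (0.134) or without PD replicate 2 or 3 or DMSO replicate 2 or 3 (0.0935 to 0.136).

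The ER-Golgi SNARE list, to which BET1 belongs, was fully expressed. All 15 genes were tested, 0 rose and 1 fell, with a median of 0.01, where 14.3% of all tested genes rose and 12.7% fell. YKT6 had a log2 difference of 0.23 (limma, adjusted p = 0.130), and STX16, STX5 and SEC22C had differences of -0.06, 0.22 and 0.19 that did not pass either. With samples weighted by quality, STX5 (0.0159) and SEC22C (0.0150) passed. The gene that fell, named after its values were seen, was BET1L, the closest relative of BET1. BET1L fell by 0.44 (adjusted p = 0.00953), with 6.37 ± 0.472 FPKM in PD cells and 8.99 ± 0.106 FPKM in DMSO cells (SD, n = 3 each).

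Of the calcitonin receptor family, which includes CALCR, its relatives, their RAMP partners and their ligands, 5 of 10 genes had no read in any sample and 1 was tested. That one, the peptide hormone gene ADM, rose by 0.83 (limma, adjusted p = 0.00182), with 30.1 ± 0.997 FPKM in PD cells and 16.6 ± 2.03 FPKM in DMSO cells (SD, n = 3 each). The RAMP1, RAMP2 and RAMP3 genes, whose proteins pair with this receptor, were among those with no read. In the imprinted cluster and its surroundings, 7 of 11 genes were tested, 0 rose and 1 (PEG10) fell, with a median of -0.15. Over all tested genes, 14.3% rose and 12.7% fell. PON2, a lactonase, had a difference of 0.06 that turned to -0.09 with equal totals, and ASB4, a ubiquitin ligase subunit, one of -0.30 (adjusted p = 0.143, and 0.0294 with equal totals).

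**Figure D5:**
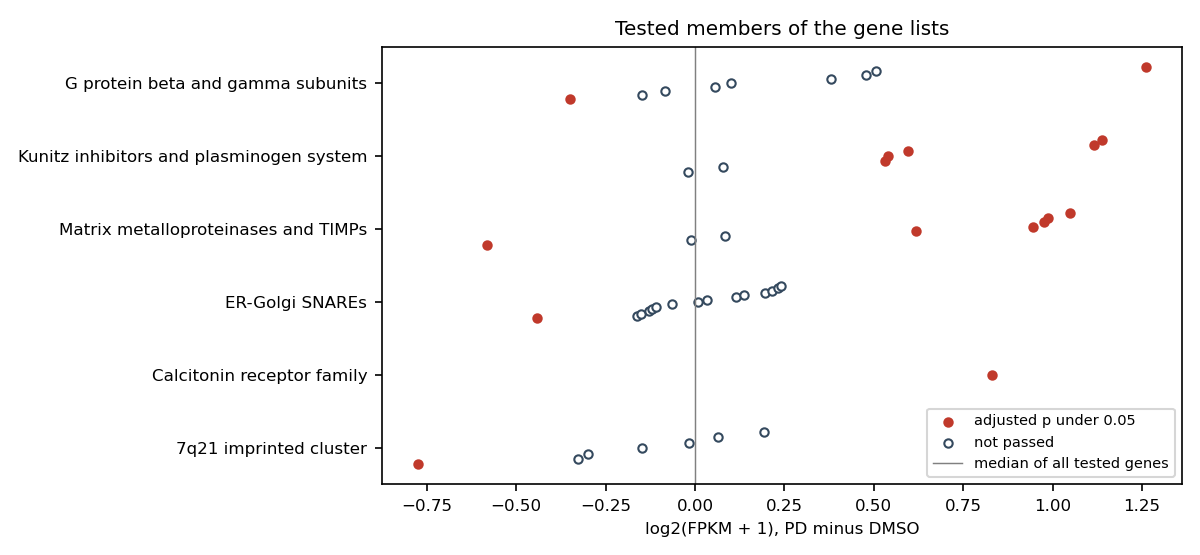
Log2(FPKM + 1) differences, PD minus DMSO, of the tested genes of each list, one list per row; filled points passed the test (adjusted p under 0.05) and open points did not, F3 and MMP1 reached the filter through PD cells only, and the vertical line marks the median of all tested genes, 0.00. The lists' own medians run from -0.15 for the imprinted cluster to 0.83 for the calcitonin receptor family, which rests on 1 gene.

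Among all tested lincRNA genes, 85 of 532 rose and 81 fell, and among antisense genes 92 of 638 rose and 80 fell. Over all tested genes, 14.3% rose and 12.7% fell. Calls in both classes thus ran both ways, as they did over all tested genes.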

How the data were processed

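Platycodon D and DMSO samples of AZ-521 cells (3 each) were compared. The libraries came from a stranded mRNA kit, per the labels. The authors deposited FPKM values per gene with gene lengths; aligner, counter and use of strand are not named. GRCm38 and mm10, both of mouse, stand in the submitters' processing notes, but all 58735 genes match GENCODE 29 (GRCh38) in identifier and position. Spreadsheet-altered names (27) were restored through identifiers. FPKM times length was a whole multiple of 1 read in 100% of values (tolerance 0.01), which gave reads per gene. FPKM denominators were 0.947 to 1.00 times the gene totals in PD samples and 1.03 to 1.10 times in DMSO samples. Read ratios were scaled by these denominators, which made PD over DMSO larger than scaling by gene totals would.

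Genes with at least 1 FPKM in at least 3 samples (13579) were tested on log2(FPKM + 1) with limma 3.58.1 in R 4.3.3 (trend, two-sided, no covariate), after tests on simulated data. P-values were adjusted by Benjamini-Hochberg over all genes tested, and a gene passed under 0.05. Voom on recovered reads was an alternative chosen after the data were seen. Counting ratios have exact 95% intervals. Named genes were the members, genes within 1 Mb at 1 FPKM or more in a sample, up to 4 per list (by change among those that passed, or by level), the 5 most like AC003092.1 and the 5 noncoding genes with the largest rise from under 1 FPKM. Members and lists were chosen with earlier results of these data known. One list gene and one exon sequence are not reported here.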

Additional observations from a re-analysis of the deposited data

How the results depend on the processing

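Of the 13579 genes, 3678 passed the test. The count was 2214 with a mean of at least 5 FPKM, 6301 with sample weights 1844 with the replicate block and 4558 without DMSO replicate 1 and PD replicate 3, and lay between 2003 and 3534 when a sample was left out, with 2423 without PD replicate 1, 2003 without PD replicate 2, 2235 without DMSO replicate 2 and 2230 without DMSO replicate 3. Equal totals moved the split to 1277 higher and 3179 lower, against 1947 higher and 1731 lower on the deposited scale. Within 1 Mb of AC003092.1, 2 genes passed, PEG10 and AC003092.2, of which AC003092.2 reached the filter through PD cells only. With a mean of at least 5 FPKM 1 passed, and with voom 4 did (AC003092.2, CALCR and AC006378.2 higher, PEG10 lower).

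The log2 difference of AC003092.1 was 5.98 with a pseudocount of 0.1, 5.08 with 0.25 and 6.86 with voom, and 3.38 to 3.59 with a sample left out. Signs turned for BET1 with equal totals (-0.12) and a sample left out (-0.11 to 0.12). They also turned for PPP1R9A with sample weights (0.078), a sample left out (-0.066 to 0.040) and without DMSO replicate 1 and PD replicate 3 (0.046), for STX16 with a sample left out (-0.13 to 0.015), and for PON2 with equal totals (-0.090) and quantile scaling (-0.0094). The cause was not tested. A tally over 18 settings took 38 named genes with a test, and TFPI2, CALCR and GNG11, which had none in the main fit. In it, 629 values stayed the same, 25 lost the threshold, 10 turned, 6 newly passed and 2 moved. For the 38, the same meant the same direction and side of the threshold. For TFPI2, CALCR and GNG11 it meant a shift within the SD of the groups, and TFPI2 and CALCR moved with voom. The 38 include genes chosen for their rise or their likeness to AC003092.1, so the tally does not measure how firm the results are.

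Whether the shared numbers pair PD and DMSO samples is not in the labels. Deviations of same-numbered samples from their group means correlated at -0.39, 0.17 and -0.16. With 3 samples per group such values are tied to one another, so they cannot decide whether the samples were paired. With the replicate block, 1844 genes passed; GNB1 (adjusted p = 0.0836), BET1L (0.0544), F2R (0.0740) and MMP17 (0.116) were among those that did not. Depth limits TFPI2, CALCR, GNG11 and GNGT1, which held 13 reads or fewer in every sample, and a count of 0 still allows a level of 3 reads.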
